A study of Homo sapiens with 16 samples.

Results

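INA6 and JJN3 are established human myeloma cell lines, malignant descendants of antibody-secreting plasma cells. The comparison set the unperturbed state of one line beside that of the other, using the non-targeting control libraries only, 3 of INA6 and 3 of JJN3, which are 6 of the 16 samples of the series. Both sets of cells carried the labels' dCas9-CRAB repressor system with a non-targeting guide. They were otherwise untreated, apart from the growth medium of each line, which is not described here. The 6 other RNA libraries, 3 of each line with a guide against KANSL2, a subunit of the NSL histone acetyltransferase complex, served as a repeat of the comparison. The 4 JJN3 chromatin accessibility libraries were not analysed here. Whether the cells were a clone or a pool, and whether replicates were separate cultures, is not stated in the labels, so the spread between libraries may be technical.

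Myeloma usually begins with 1 of a few alternative events that raise a D cyclin, the partners of CDK4 and CDK6 at the entry to the cell cycle. Translocations of the immunoglobulin heavy chain locus place CCND1 on chromosome 11 or the transcription factor gene MAF on chromosome 16 under immunoglobulin enhancers, and MAF in turn drives CCND2. INA6 is known as a line with the 11;14 translocation that needs interleukin 6 to grow, and JJN3 as a line with the 14;16 translocation. The questions addressed were therefore which driver, receptor, surface and lineage genes the 2 lines hold at very different places in their expression order, and which they share.

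The deposited values are rlog values, a shrunken log2 scale of read counts, and the table of each line was normalised apart from the other. A value of one table cannot be set directly against a value of the other, so each gene was ranked within each library among the 20746 symbols that were other than 0 in at least 1 table. Its percentile, 100 for the highest, was compared between lines. A rank on this scale also depends on transcript length, so it places 1 gene in 2 lines and does not order different genes by RNA copies. A large shift was called where every library of one line lay above every library of the other, the nearest libraries were at least 25 percentile points apart, and the mean rlog was at least 5 in the higher line. An rlog of 5 fell near the middle of the order, at percentile 49.4 in INA6 and 49.2 in JJN3. No test was made across tables, and an exact permutation test of 3 against 3 libraries could not go below 0.1. These are bulk libraries, in which a gene carried by fewer cells and a gene with less RNA per cell cannot be told apart.

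Replicates were close. The median SD of a percentile over the 3 control libraries was 0.246 points in INA6 and 0.205 points in JJN3, and in 94.4% of ranked symbols the 3 libraries of one line did not overlap the 3 of the other. Separation alone therefore says little about a single gene. All INA6 libraries lay above all JJN3 libraries in 52.7% of protein-coding symbols and below them in 41.1%, and counts of direction over a gene list are given beside these shares. A large shift with the higher rank in INA6 was called for 439 symbols (2.12% of those ranked), of which 379 were protein-coding (2.35% of protein-coding symbols). With the higher rank in JJN3 it was called for 720 symbols (3.47%), of which 663 were protein-coding (4.11%). Below, a gene is said to be called where it met this rule, and the counts of called members of each list stand beside 2.35% and 4.11%. A count of 1 or 2 called members in a list is too small to set apart from these shares, and serves only to name single genes. Of these symbols, 127 of the INA6 set were listed at 0 in all 6 JJN3 libraries and 122 of the JJN3 set were listed at 0 in all 6 INA6 libraries. Since some genes that every cell uses, such as EIF4A1, are also listed at 0 in both tables, a listed 0 does not show that a gene was silent. Most symbols moved little. Among the 9429 symbols with a mean rlog of at least 5 in both lines, the median absolute shift was 4.15 points, and 77 and 101 were called higher in INA6 and in JJN3.

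**Figure D1:**
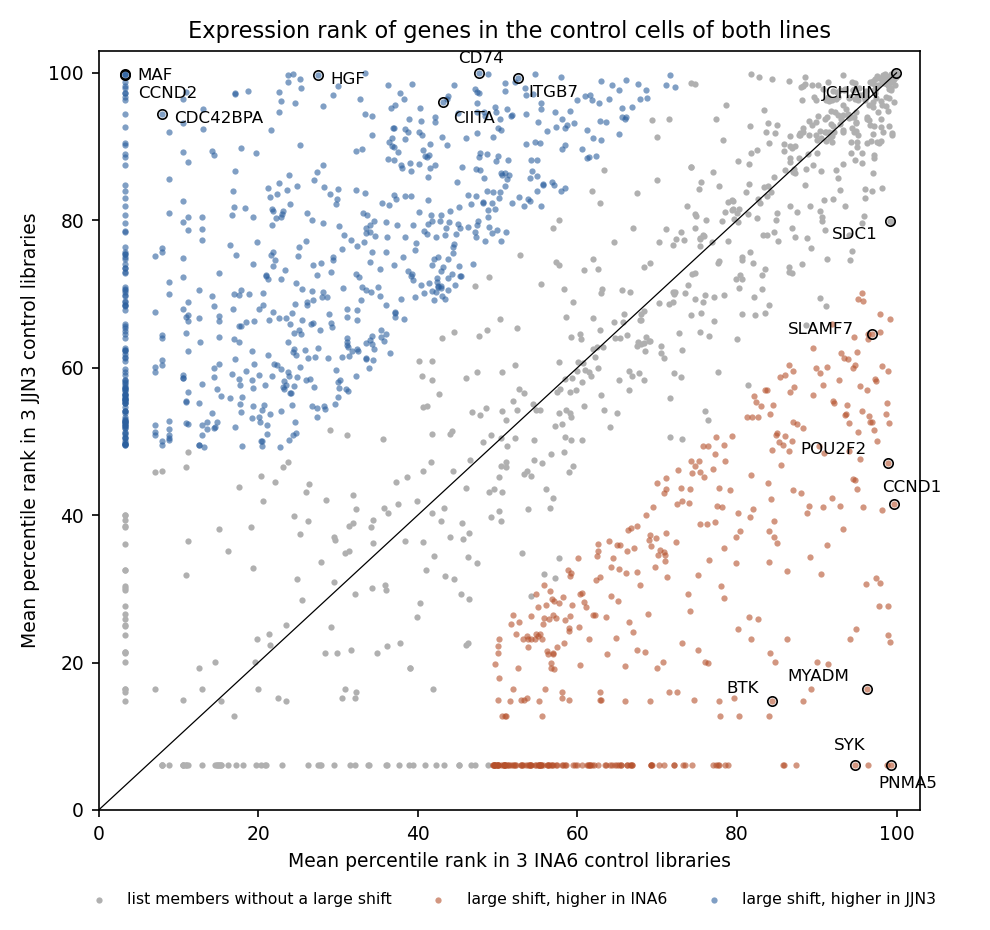
Mean percentile rank over 3 INA6 control libraries (x axis, percent) and over 3 JJN3 control libraries (y axis, percent). Each point is a symbol with a large shift (red, 439 higher in INA6; blue, 720 higher in JJN3) or another member of the gene lists (grey), the diagonal marks equal rank, and symbols listed at 0 form the lines at percentile 3.33 in INA6 and 6.13 in JJN3.

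The same calls came back in the other libraries of the 2 lines. In the KANSL2 guide libraries the rule called 417 symbols higher in INA6 (2.01%) and 728 higher in JJN3 (3.51%). Of the calls in the controls, 399 of 439 (90.9%, and 95.7% of the INA6 calls in the guide libraries) and 688 of 720 (95.6%, and 94.5% of the JJN3 calls there) were shared. All 439 and all 720 kept non-overlapping libraries in the same direction, with the narrowest gap at 14.1 and 19.8 points. These libraries share no control sample with the first comparison but share the 2 tables and their normalisation. KANSL2 itself had a mean rlog of 8.08 in the INA6 controls and 7.69 in the INA6 guide libraries, and of 7.23 and 6.01 in JJN3.

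The libraries of both lines carried the plasma cell programme that their labels name. JCHAIN, the joining chain of secreted polymeric antibodies, held rank 1 in every INA6 library and rank 2 in every JJN3 library. Only 2 of the 16 listed immunoglobulin constant and joining chain genes had deposited values, so these ranks leave the others out. IRF4, the transcription factor on which myeloma cells depend, stood at percentile 99.8 in INA6 and 99.9 in JJN3. XBP1, the regulator of the secretory stress response, stood at 99.9 and 99.4, POU2AF1, a coactivator of octamer-binding factors, at 99.9 and 99.7, and PRDM1, which ends the B cell programme, at 99.1 and 96.7. MZB1, an endoplasmic reticulum chaperone of antibody-secreting cells, stood at 97.0 and 91.7, and TNFRSF17, the B cell maturation antigen, at 98.7 and 96.7. Of the 10 plasma cell markers, CD38 was the lowest in INA6, at percentile 48.9, and SLAMF7 the lowest in JJN3, at 64.6.

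Markers of other cell types were counted in the same way. Of 26 ranked T and NK cell markers 2 were called, both higher in JJN3, and the JJN3 libraries were all above in 14 and the INA6 libraries in 12. Of 14 ranked myeloid markers 1 was called, higher in JJN3, and the counts of direction were 8 for INA6 and 6 for JJN3. A further 8 myeloid markers were listed at 0 in both tables, S100A9, TYROBP and CD163 among them. Of 19 ranked stromal, endothelial and epithelial markers, 2 were called higher in INA6 and 4 in JJN3, and 7 and 12 had all libraries above in that line.

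The D cyclin and MAF genes lay at opposite ends of the order in the 2 lines. CCND1 (chr11:69641156-69654474) had rlog values of 13.35, 13.45 and 13.36 in the INA6 libraries and 3.19, 3.16 and 3.17 in the JJN3 libraries. These are percentiles of 99.7 ± 0.0155 (SD, n = 3) and 41.5 ± 0.0448 (SD, n = 3), a shift of 58.3 points. CCND1 was thus among the uppermost genes of all INA6 libraries and in the lower part of the order in all JJN3 libraries.

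CCND2 (chr12:4273762-4305353) showed the opposite pattern. It was listed at 0 in INA6 and had rlog values of 13.12, 13.17 and 13.15 in JJN3, at percentile 99.7. MAF (chr16:79202622-79600737) was likewise listed at 0 in INA6 and had 13.71, 13.74 and 13.61 in JJN3, at percentile 99.8. In each of these 3 genes one line was near the top of its order and the libraries of the 2 lines were far apart.

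CCND3, the D cyclin that neither translocation targets, differed by much less. Its rlog values were 8.78, 8.79 and 8.69 in INA6 and 9.32, 9.41 and 9.43 in JJN3, percentiles of 75.2 and 84.2, with no large shift. MAFA, a second large MAF gene, had 0.72, 0.73 and 0.74 in INA6 and 7.10, 7.21 and 7.10 in JJN3, a shift of −34.3 points (INA6 minus JJN3).

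The remaining genes of this list were shared by the lines or low in both. MYC, the proliferation factor at the end of many myeloma lesions, stood at percentile 99.9 in each line. NSD2, the histone methyltransferase of the 4;14 translocation, stood at 99.1 and 92.8, and FGFR3, its translocation partner, at 36.3 and 40.2. MYCN had −1.97 in all 3 INA6 libraries and 4.24, 4.19 and 4.18 in JJN3, and did not reach the minimum level. In all, 1 of 12 translocation and D cyclin genes was called higher in INA6 and 3 in JJN3.

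Most ranked genes near the 3 drivers were not called. Within 1 Mb of CCND1, 2 of 19 other protein-coding symbols were called, both higher in INA6. Of the 19, GAL, MRGPRF, FGF3 and FGF4 were listed at 0 in both tables and could not be called. One is MYEOV, named for its overexpression in myeloma and 344 kb from CCND1, with 9.12, 9.13 and 9.05 in INA6 and a listed 0 in JJN3. The other is SHANK2, a synaptic scaffold gene 813 kb away, with 5.46, 5.52 and 5.58 against −1.97 in every JJN3 library. LTO1, 11.1 kb from CCND1, stood at percentiles 71.6 and 66.6.

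Within 1 Mb of CCND2, TSPAN9 was called higher in JJN3 among 16 symbols, and TIGAR, 15.9 kb away, stood at 60.3 and 60.5. FGF6, FGF23, KCNA1 and KCNA5 of the 16 were listed at 0 in both tables and could not be called. Of the 3 protein-coding neighbours of MAF, CDYL2 was called higher in JJN3 (−1.04, −1.05 and −1.04 against 9.32, 9.40 and 9.37), at a distance of 997 kb. WWOX, which overlaps the MAF gene model, stood at 54.5 and 50.2.

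Genes known to accompany MAF in myeloma were in part much higher in JJN3. Of 10 ranked members 4 were called higher in JJN3 and 0 in INA6, beside 4.11% and 2.35% of protein-coding symbols, and the median shift was −12.1 points beside 1.06 over protein-coding symbols. ITGB7, the integrin beta chain that ties myeloma cells to stroma, had 5.53, 5.63 and 5.74 in INA6 and 12.41, 12.47 and 12.49 in JJN3. CCR1, a chemokine receptor, had 4.08, 3.92 and 3.96 against 11.70, 11.75 and 11.87. NUAK1, an AMPK-related kinase, had −1.97, −1.96 and −1.97 against 9.21, 9.32 and 9.14, and DEPTOR, an inhibitor of the mTOR kinase, had 6.78, 7.05 and 6.89 against 10.47, 10.42 and 10.46. In all 4 the mean percentile was at most 59.6 in INA6 and at least 82.6 in JJN3. The 6 other members were not called, and 4 of them also had all JJN3 libraries above, which makes 8 of 10 in that direction (80.0%, beside 41.1% of protein-coding symbols). TLR4 shifted by −16.9 points and TNFSF4 by −7.16, while ARID5A and NTRK2 shifted by −1.33 and −0.879. SMARCA1 and CX3CR1 went the other way, by 5.32 and 7.54 points. The promoters of the list, MAF and CCND2 were looked up, as the 250 bases before the RefSeq start (GRCh38.p14). The letters sought were the MAF recognition half-site, TGCTGAC on either strand. Of 12 genes 10 had an entry and 0 of these held the letters, beside 3.43% of 35116 promoters. DEPTOR and CCND2 had no entry and were not searched. That share is per promoter while the count is per gene, as CX3CR1, NTRK2 and ARID5A had several entries. At so low a share, a count of 0 among 10 genes says little.

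**Figure D2:**
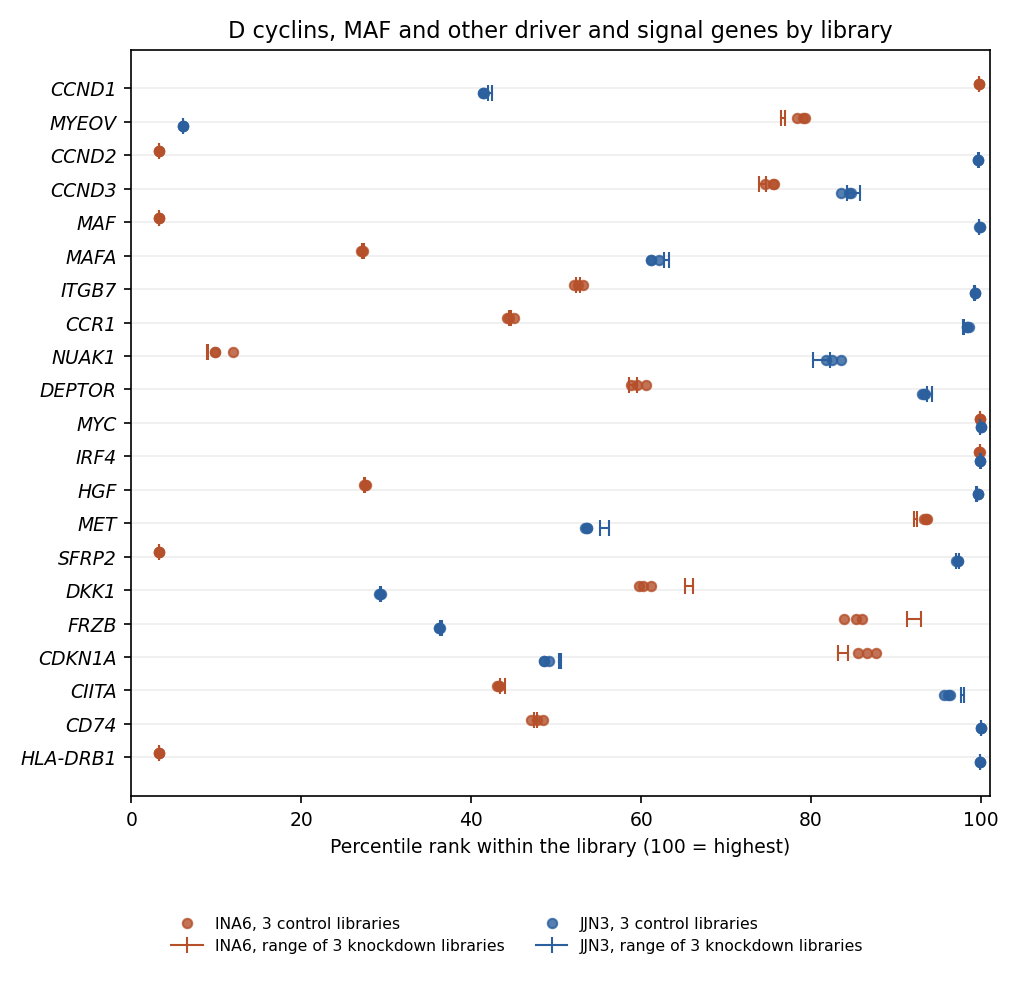
Percentile rank (x axis, 100 is highest) of driver, growth factor and antigen presentation genes (y axis) in 3 INA6 (red) and 3 JJN3 (blue) control libraries, with bars for the range of the 3 KANSL2 guide libraries of each line. CCND1 lies at 99.7 in INA6 and 41.5 in JJN3, and CCND2 and MAF lie at 3.33 in INA6, where they are listed at 0, and at 99.7 and 99.8 in JJN3.

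Interleukin 6 signals through IL6R and the shared chain gp130, encoded by IL6ST, to the JAK kinases and STAT3. Most of this route held the same place in both lines: IL6ST stood at percentiles 90.1 and 94.1, JAK1 at 91.9 and 90.6, TYK2 at 90.6 and 91.2 and STAT3 at 96.3 and 93.8. IL6R, the ligand-binding chain, had 10.04, 9.97 and 10.18 in INA6 and 7.56, 7.68 and 7.60 in JJN3. Its shift of 22.9 points, with every INA6 library above every JJN3 library, was below the limit of a large shift. IL6, the cytokine, was near the bottom of the order in INA6 (percentile 7.94) and listed at 0 in JJN3. Since INA6 needs interleukin 6 to grow, growth medium and line cannot be told apart in the values of this route and its targets.

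Of 25 members of the receptor, JAK and STAT list, 2 were called higher in INA6 and 3 in JJN3, and all libraries were above in 15 and 9. LIFR, the receptor chain of leukaemia inhibitory factor, had 7.11, 7.05 and 7.12 in INA6 and 0.20, 0.20 and 0.21 in JJN3. PTPN6, the phosphatase SHP1 that dampens JAK signals, had 8.87, 8.84 and 8.72 against 4.09, 3.99 and 4.00. Both were higher in each INA6 library by a wide margin.

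The 3 called higher in JJN3 were IL2RG, IL4R and IL10RA. IL2RG, the common gamma chain, had 5.70, 5.41 and 5.60 in INA6 and 11.94, 11.96 and 11.98 in JJN3, and IL4R had 2.91, 2.70 and 2.70 against 9.36, 9.29 and 9.25. IL10RA, the interleukin 10 receptor chain, had 6.65, 6.74 and 6.77 against 9.46, 9.38 and 9.34. IL21R, which pairs with the common chain as IL4R does, was at percentiles 50.3 and 66.6 and was not called.

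Downstream of STAT3, CEBPD, a basic leucine zipper factor, was the single called gene of 15 ranked targets and feedback inhibitors, with −0.28, −0.27 and −0.27 in INA6 and 10.36, 10.31 and 10.28 in JJN3. SOCS3, the feedback inhibitor of gp130, stood at 99.5 and 91.6, and PIM1, a survival kinase, at 95.0 and 96.7. Of 24 ranked RAS and ERK pathway genes, 1 was called in each direction, a share near that of protein-coding symbols. ETV5, an ETS factor, was called higher in INA6 (9.34, 9.40 and 9.34 against 2.83, 2.73 and 2.70). SPRY2, an inhibitor that receptor tyrosine kinases induce, was called higher in JJN3 (−1.97, −1.96 and −1.97 against 8.63, 8.41 and 8.42).

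Surface antigens, many of them targets of myeloma drugs, divided between the lines. Of 34 ranked members 6 were called higher in INA6 and 3 in JJN3. SLAMF7, the target of elotuzumab, had 11.42 in each of the 3 INA6 libraries and 7.41, 7.47 and 7.57 in JJN3. FCRL5, an Fc receptor-like target of antibodies, had 12.54, 12.59 and 12.59 against 7.65, 7.69 and 7.75. Its relative FCRL2 had 8.03, 8.30 and 8.11 in INA6 and was listed at 0 in JJN3.

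CD86, a costimulatory ligand, SEMA4A, a semaphorin of immune cells, and LILRB4, an inhibitory receptor, completed the INA6 set. Their rlog values were 7.74, 7.76 and 7.84 against −1.49, −1.48 and −1.49 for CD86. For SEMA4A they were 12.31, 12.43 and 12.26 against 6.14, 6.19 and 6.25. For LILRB4 they were 5.04, 5.26 and 5.13 against −1.97, −1.96 and −1.97, which put the gene just above the minimum level in INA6.

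CD70 and CD48 were higher in JJN3. CD70, the ligand of CD27, had 1.08, 1.03 and 1.05 in INA6 and 9.25, 9.31 and 9.41 in JJN3. CD48, a SLAM family ligand, had 8.09, 8.28 and 7.90 against 11.38, 11.42 and 11.43. CD74, the MHC class II invariant chain, is given with its pathway below.

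Several clinical targets stayed under the limit although the libraries did not overlap. SDC1, the plasma cell marker CD138, had 12.67, 12.72 and 12.57 in INA6 and 8.92, 8.92 and 9.06 in JJN3, a shift of 19.3 points. CD38, the target of daratumumab, went the other way, with 4.90, 4.99 and 4.82 against 8.10, 8.25 and 8.40, a shift of −23.3 points. CD81, a tetraspanin, shifted by −24.2 points and its nearest libraries were 23.7 points apart, just outside the limit, while those of IL10RA were 25.1 points apart, just inside it. GPRC5D, the target of talquetamab, overlapped between the lines, at percentiles 61.0 and 59.7.

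**Figure D3:**
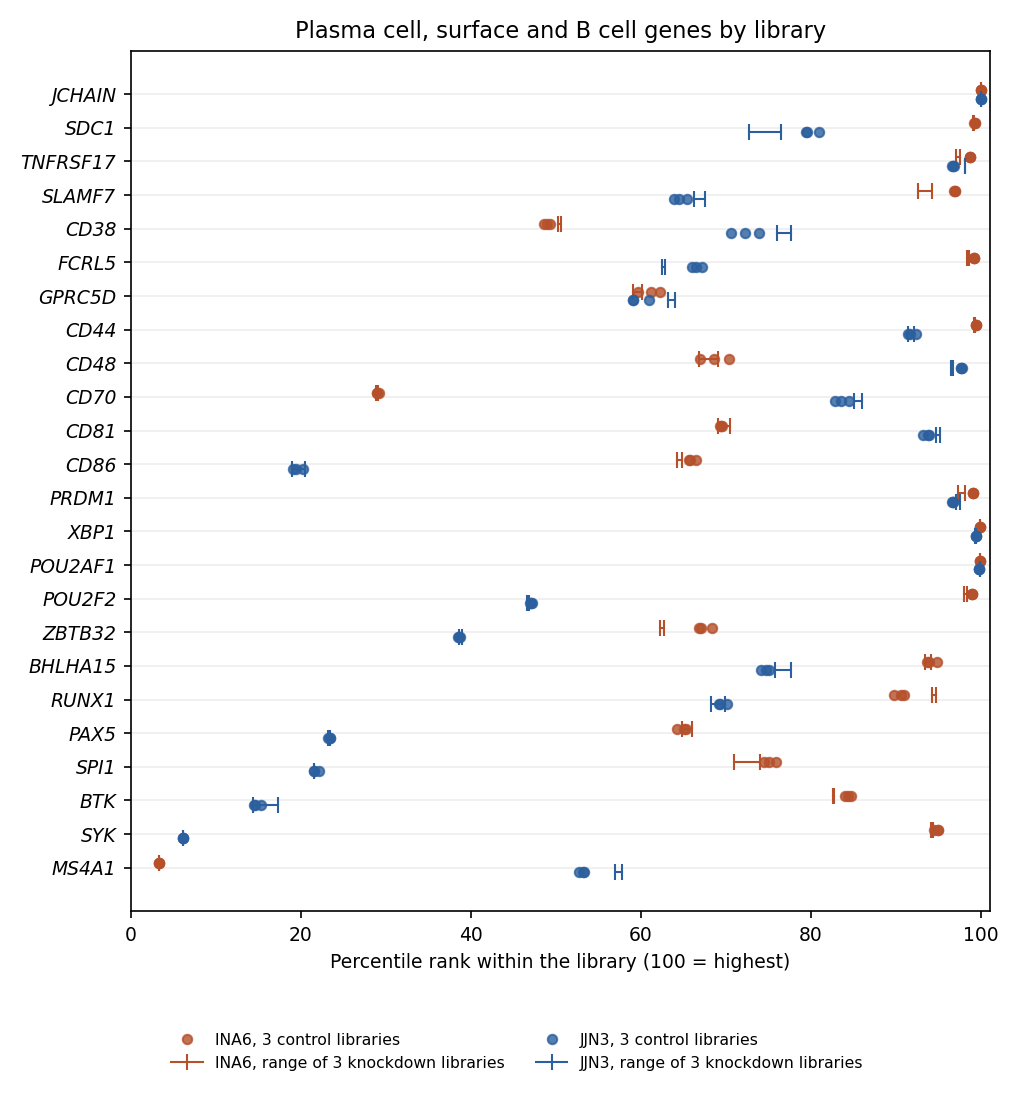
Percentile rank (x axis, 100 is highest) of plasma cell, surface and B cell genes (y axis) in 3 INA6 (red) and 3 JJN3 (blue) control libraries, with bars for the range of the 3 KANSL2 guide libraries. JCHAIN, XBP1 and POU2AF1 lie above 99 in both lines, POU2F2 at 98.9 and 47.1, BTK at 84.4 and 14.8, and SYK at 94.8 and 6.13, where it is listed at 0.

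Of 23 regulators of plasma cell fate, 2 were called, both higher in INA6. POU2F2 encodes OCT2, an octamer-binding factor of B cells. It had 12.36, 12.42 and 12.40 in INA6 and 4.48, 4.46 and 4.52 in JJN3, percentiles of 98.9 and 47.1. ZBTB32, a repressor of memory-derived plasma cells, had 7.91, 7.89 and 8.05 against 2.51, 2.47 and 2.44. RUNX1 and BHLHA15 had shifts of 20.9 and 19.5 points and were not called. KLF2, a factor of plasma cell homing, shifted by 15.3 points in the controls and by −0.895 points in the guide libraries.

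Of 28 ranked B cell markers 5 were called higher in INA6 and 2 in JJN3, and all libraries were above in 19 and 9. PAX5, the B lineage regulator that plasma cells switch off, had 7.56, 7.67 and 7.70 in INA6 and −0.94, −0.92 and −0.95 in JJN3. SPI1, the ETS factor PU.1, had 8.81, 8.74 and 8.68 against −1.04, −1.04 and −1.01. Both stood well above the middle of the order in INA6 and below percentile 25 in JJN3.

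Kinases of the B cell receptor followed the same direction. BTK, the target of ibrutinib, had 9.59, 9.63 and 9.66 in INA6 and −1.97 in all 3 JJN3 libraries. SYK, which acts just upstream, had 10.85, 10.94 and 10.94 in INA6 and was listed at 0 in JJN3. The receptor's own signalling chains were not called: CD79B stood at 94.5 and 75.9 and CD79A at 37.2 and 44.5. MS4A1, the B cell antigen CD20, went the other way, listed at 0 in INA6 and at 5.88, 5.79 and 5.88 in JJN3.

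ZAP70, the T cell relative of SYK, was higher in JJN3. Its rlog values were 3.15, 3.15 and 3.21 in INA6 and 10.23, 10.23 and 10.19 in JJN3. CD8B was listed at 0 in INA6 and had 7.28, 7.33 and 7.15 in JJN3, while CD3D, a chain of the T cell receptor complex, was listed at 0 in JJN3 and CD3E stood at percentile 50.9 there.

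MHC class II molecules display peptides to helper T cells. CIITA is the coactivator that switches their genes on together with the invariant chain CD74, through a shared promoter block whose Y box holds a reversed CCAAT. The promoters of 4 of these genes are printed because they rank low in INA6 and high in JJN3 together; each is the 250 bases before the RefSeq start of transcription (GRCh38.p14), 5′ to 3′ on the gene's strand, with CCAAT or its reverse complement ATTGG in capitals. HLA-DRB1 lies at chr6:32589849-32590098 (minus strand), HLA-DQA1 at chr6:32637156-32637405 (plus strand), HLA-DQB1 at chr6:32666658-32666907 (minus strand) and CD74 at chr5:150412911-150413160 (minus strand).
HLA-DRB1: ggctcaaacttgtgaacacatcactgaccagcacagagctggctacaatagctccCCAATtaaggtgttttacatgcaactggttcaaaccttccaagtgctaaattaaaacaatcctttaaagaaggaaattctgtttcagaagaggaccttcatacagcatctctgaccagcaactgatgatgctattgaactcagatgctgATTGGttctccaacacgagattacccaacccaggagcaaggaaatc
HLA-DQA1: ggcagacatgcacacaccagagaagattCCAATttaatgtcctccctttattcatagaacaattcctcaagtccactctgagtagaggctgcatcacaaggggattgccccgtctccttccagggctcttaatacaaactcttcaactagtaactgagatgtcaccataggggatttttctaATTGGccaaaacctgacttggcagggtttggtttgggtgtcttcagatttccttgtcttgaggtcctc
HLA-DQB1: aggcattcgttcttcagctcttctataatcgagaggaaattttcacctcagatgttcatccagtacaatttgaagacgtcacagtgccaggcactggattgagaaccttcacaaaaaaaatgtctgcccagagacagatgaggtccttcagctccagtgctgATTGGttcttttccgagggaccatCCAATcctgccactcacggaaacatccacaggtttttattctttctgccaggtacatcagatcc
CD74: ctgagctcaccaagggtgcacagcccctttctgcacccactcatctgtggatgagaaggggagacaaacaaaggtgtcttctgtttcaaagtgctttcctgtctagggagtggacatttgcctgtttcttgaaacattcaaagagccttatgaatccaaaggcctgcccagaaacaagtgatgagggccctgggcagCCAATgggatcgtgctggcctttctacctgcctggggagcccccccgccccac
Of 11 class II genes and partners looked up, 9 had a promoter entry and 8 of these held CCAAT on either strand, beside 32.0% of 35116 promoters of the same length. The share is per promoter and the count is per gene, as HLA-DPA1, the gene without a match, had entries for separate starts. In CD74 and HLA-DMB the only match was a forward CCAAT, not the reversed form of the Y box, so the count is not one of Y boxes. A match is a description of the letters and not of a bound site.

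Of 16 ranked class II pathway genes 7 were called higher in JJN3 and 0 in INA6, and the median shift was −34.8 points. CIITA (chr16:10866206-10943021) had 3.71, 3.71 and 3.67 in INA6 and 11.04, 10.99 and 10.90 in JJN3, percentiles of 43.2 and 96.0. CD74 (chr5:150401639-150412910) had 4.79, 4.65 and 4.51 against 15.29, 15.38 and 15.37, and held rank 8, 8 and 7 in the JJN3 libraries. HLA-DRB1 was listed at 0 in INA6 and had 14.06, 14.04 and 13.98 in JJN3. HLA-DQB1, HLA-DRB5, HLA-DQA1 and HLA-DMA were also listed at 0 in INA6 and stood at percentiles 98.7, 98.2, 97.3 and 56.3 in JJN3.

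The genes of the MHC itself were poorly represented in both tables, and this stands beside every class II value. In the stretch of chromosome 6 that holds the MHC (chr6:28503296-33457544), 85 of 169 protein-coding symbols (50.3%) were listed at 0 in both tables, beside 15.7% of the others, and 11 (6.51%) reached an rlog of 5 in a line, beside 56.5%. DDX39B, a helicase that every cell uses, was listed at 0 in both tables, and ABCF1 had a mean of −1.49 in INA6 and −1.97 in JJN3. HLA-DRA, the obligate partner of HLA-DRB1, had a mean of only 1.92 in JJN3. HLA-DR and HLA-DQ genes also have near-identical relatives and varying alleles, so their values are uncertain. CIITA and CD74 lie outside that region, and what the sparse region does to the HLA values was not tested. Class I genes gave no large shift among 17 ranked members, with HLA-C at percentiles 94.0 and 78.0.

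Adhesion receptors were split 3 to INA6 and 6 to JJN3 among 33 ranked members. ITGA6 and ITGA3, laminin-binding alpha chains, stood at 74.2 and 73.0 in INA6 and at 47.4 and 43.7 in JJN3. CADM1, a cell adhesion molecule, had 12.37, 12.49 and 12.39 against 6.92, 6.89 and 6.88.

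On the JJN3 side were 4 integrin beta chains. ITGB5 had 2.39, 2.29 and 2.41 in INA6 and 11.74, 11.76 and 11.77 in JJN3, ITGB8 had 1.84, 1.84 and 1.85 against 10.75, 10.66 and 10.54, and ITGB2 had −0.32, −0.32 and −0.30 against 9.33, 9.45 and 9.44. ITGB7, given above, is the fourth. CDH2, N-cadherin, was listed at 0 in INA6 and had 7.89, 7.82 and 7.89 in JJN3, and ALCAM stood at 21.0 and 72.4.

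Epithelial genes were among those called higher in JJN3. EPCAM, an epithelial adhesion molecule, was listed at 0 in INA6 and had 8.06, 8.04 and 8.08 in JJN3, and the keratins KRT8 and KRT18 stood at 53.6 and 51.4 in INA6 and at 96.9 and 86.2 in JJN3. FN1, fibronectin, stood at 47.2 and 78.4. PDGFRA, a growth factor receptor of stromal cells, and PECAM1 were the members called higher in INA6, with PDGFRA at 9.73, 9.72 and 9.90 and listed at 0 in JJN3. The defining mesenchymal and endothelial genes LUM, CDH5 and TEK were listed at 0 in both tables.

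Of 20 ranked chemokines and receptors 1 was called in each direction, a share near that of protein-coding symbols. ACKR3, a decoy receptor of CXCL12, was called higher in INA6 (5.70, 5.34 and 5.87 against −1.49 in each JJN3 library). CCR2 was called higher in JJN3 (5.11, 5.11 and 5.25 against 9.12, 9.34 and 9.33). CXCR4, the homing receptor for bone marrow, stood at 98.1 and 84.3.

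Secreted factors of myeloma bone disease and growth factor signals differed in kind between the lines, with 5 of 26 members called higher in INA6 and 4 in JJN3. HGF, the ligand of the receptor MET, had 0.80, 0.82 and 0.78 in INA6 and 13.14, 13.19 and 13.09 in JJN3, percentiles of 27.5 and 99.7. MET had 10.66, 10.71 and 10.73 against 5.94, 5.91 and 5.94, percentiles of 93.5 and 53.5. The ligand thus ranked high in JJN3 and its receptor ranked higher in INA6.

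WNT antagonists were divided in the same manner. DKK1, the inhibitor of osteoblast formation secreted by myeloma cells, had 6.92, 7.13 and 7.00 in INA6 and 0.39, 0.40 and 0.41 in JJN3, and FRZB had 9.72, 9.78 and 9.58 against 1.95, 1.99 and 1.96. SFRP2 was listed at 0 in INA6 and had 11.29, 11.22 and 11.29 in JJN3. All 3 are secreted antagonists, and each line held its own.

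SPP1, osteopontin, and CSF1, a macrophage growth factor, were higher in INA6, at percentiles 75.1 and 82.7 against 31.8 and 53.3. TNFRSF11A, the receptor RANK, and BMP6 were higher in JJN3, at 85.0 and 97.4 against 22.6 and 47.4.

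WNT ligands, ephrins and axon guidance genes were called higher in JJN3 in 8 of 28 cases and in INA6 in 1. WNT5B had 0.27, 0.23 and 0.28 in INA6 and 10.99, 10.97 and 10.96 in JJN3, WNT10A had 2.85, 2.93 and 2.81 against 10.60, 10.53 and 10.45, and ROBO1, the receptor of SLIT, had −0.99, −0.97 and −0.99 against 9.99, 10.04 and 9.95. The others were NRP2, EFNB2, EPHB2, WNT5A and EPHA2. RELN, reelin, had 7.17, 7.39 and 7.04 in INA6 and was listed at 0 in JJN3.

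In the Notch pathway, ligands on one cell trigger cleavage of receptors on the next, which switches on HES and HEY repressors. Here 7 of 16 ranked genes were called higher in JJN3 and 2 in INA6, with a median shift of −19.6 points. JAG2, a ligand, had 3.81, 3.75 and 3.82 in INA6 and 11.09, 11.08 and 11.03 in JJN3. NOTCH2, a receptor, had 8.17, 8.50 and 8.37 against 11.77, 11.71 and 11.78. The receptor NOTCH1 was not called, at percentiles 90.4 and 81.2.

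Targets and cofactors of the pathway were split. HEY1, HES4, NRARP and the coactivator MAML2 stood at 94.7, 59.4, 88.6 and 74.6 in JJN3 and at 47.4, 7.07, 47.6 and 29.3 in INA6, and HES7 at 78.2 and 49.3. HEY2 and DTX1 were the reverse: HEY2 had 8.88 in each INA6 library and 1.45, 1.43 and 1.42 in JJN3, and DTX1 had 8.86, 8.86 and 8.83 against 2.58, 2.52 and 2.49. HES1, HES5, DLL1 and NOTCH4 were listed at 0 in both tables.

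**Figure D4:**
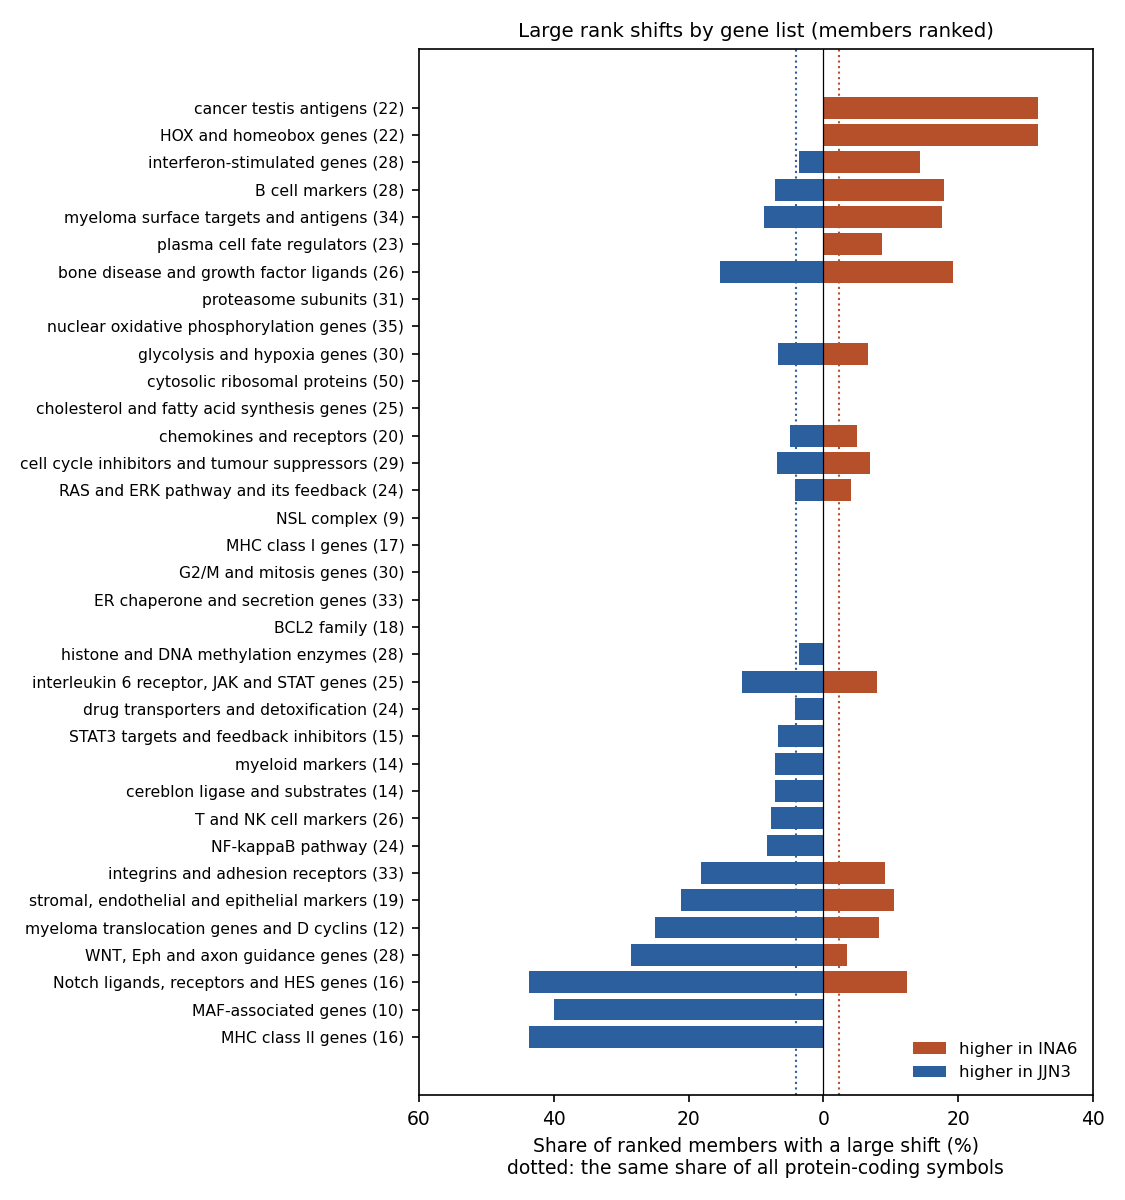
Share of ranked members of each gene list with a large shift (x axis, percent; right and red, higher in INA6; left and blue, higher in JJN3), with the number of ranked members in brackets and lists on the y axis in order of the difference of the shares. Dotted lines give the share over all protein-coding symbols, 2.35% and 4.11%; 7 of 22 cancer testis antigens extend to the right and 7 of 16 class II genes to the left.

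Cancer testis antigens, normally expressed in germ cells, mostly ranked higher in INA6, and some ranked high in both lines. Of 22 ranked members 7 were called higher in INA6 and 0 in JJN3, and 11 more were listed at 0 in both tables. All libraries were above in 19 for INA6 and in 3 for JJN3, and 6 members shifted by at most 5 points. MAGEA3, MAGEA6 and MAGEA12 stood at 96.3, 95.1 and 94.4 in INA6 and at 90.5, 91.6 and 94.1 in JJN3. MAGEC1 shifted by −13.7 points, towards JJN3. MAGEA4 had 12.29, 12.32 and 12.36 in INA6 and MAGEA1 11.29, 11.22 and 11.29, and both were listed at 0 in JJN3. SSX1 had 10.46, 10.39 and 10.34 against −1.48, −1.49 and −1.49. CTAG2 and TEX19 stood at 85.6 and 87.0 in INA6 and at 46.8 and 43.4 in JJN3, while GAGE1 and LUZP4 were near the minimum level in INA6. These families hold near-identical copies, between which reads can be split, so the single members are uncertain.

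HOX and related homeobox genes, which set position along the body axis and mark blood progenitors, went in both directions. Of 22 ranked members 7 were called higher in INA6 and 0 in JJN3, and all libraries were above in 17 and 5. The median shift was 21.3 points, and 14 more were listed at 0 in both tables, HOXA9 and 9 other HOXA genes among them. HOXC4 had 8.44, 8.48 and 8.45 in INA6 and was listed at 0 in JJN3, HOXB4 had 8.86, 8.86 and 8.88 against −1.48, −1.48 and −1.49, and HOXC9 had 8.75, 8.73 and 8.61 against −1.97, −1.96 and −1.97. Their cofactor MEIS2 stood at 80.2 in INA6 and at 24.5 in JJN3. HOXB7 and HHEX were also called. HOXB9 had the widest shift towards JJN3, −26.2 points, but its mean rlog there was 3.71, below the minimum level. HOXB8 and HOXB2 shifted by −18.1 and −13.5 points and were also below that level, with means of −1.04 and 3.30 in JJN3. PBX3 was above the level in both lines, with means of 6.61 in INA6 and 8.97 in JJN3. It shifted by −22.3 points and was not called.

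Tumour suppressor and cell cycle inhibitor genes were called in 2 of 29 cases in each direction. CDKN1A, the inhibitor p21, had 9.84, 9.73 and 9.95 in INA6 and 4.97, 4.87 and 4.85 in JJN3. FAS, a death receptor, had 5.30, 5.03 and 5.26 in INA6 and 10.32, 10.29 and 10.30 in JJN3. CDKN1C, the inhibitor p57, stood at 15.1 and 60.5.

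In the NF-kappaB pathway 2 of 24 ranked genes were called, both higher in JJN3. TNFAIP3, the feedback inhibitor A20, had 6.52, 6.71 and 6.65 in INA6 and 12.72, 12.84 and 12.67 in JJN3. BIRC3, the inhibitor of apoptosis cIAP2, had 7.42, 7.37 and 7.41 against 12.17, 12.19 and 12.06. Both are known NF-kappaB targets and were in the uppermost part of the JJN3 order.

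The BCL2 family gave no large shift among 18 members. MCL1, the survival factor of plasma cells, stood at 99.7 in both lines with overlapping libraries, BCL2, the target of venetoclax, at 91.4 and 98.8, and BCL2L1 at 71.1 and 78.8. The members with the widest shifts were BCL2A1 at 25.6 points, below the minimum level, and BMF, a proapoptotic member, at −24.4 points.

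Of 28 ranked interferon-stimulated genes 4 were called higher in INA6 and 1 in JJN3, and all libraries were above in 14 and 14. The oligoadenylate synthetases OAS1, OAS2 and OAS3 lie side by side on chromosome 12. OAS2 had 11.41, 11.53 and 11.56 in INA6 and 5.48, 5.51 and 5.54 in JJN3, OAS1 stood at 88.3 and 51.8, OAS3 at 84.1 and 53.7, and MX1, an antiviral GTPase, at 66.3 and 35.1. IFITM2, a block to viral entry, had 4.42, 4.45 and 4.43 against 9.15, 9.16 and 9.26. The median shift of the list was 0.705 points, and uncalled members lay on both sides. IFI44L shifted by 27.6 points, below the minimum level, STING1 by 15.7 and IFIT1 by 13.1, while XAF1 shifted by −20.4 and ISG15 by −12.4.

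Single genes of drug response lists also stood out. IKZF2 had 6.25, 6.40 and 6.39 in INA6 and 10.37, 10.25 and 10.29 in JJN3, while its relatives IKZF1 and IKZF3, the substrates through which lenalidomide acts in myeloma, stood at 97.7 and 91.8 in INA6 and at 90.4 and 94.9 in JJN3, and CRBN, their ligase receptor, at 57.5 and 56.7. MGST1, a glutathione transferase, was listed at 0 in INA6 and had 10.14, 9.98 and 10.10 in JJN3. It was the 1 called of 24 ranked drug transporter and detoxification genes. In that list all libraries were above in 12 genes for INA6 and in 9 for JJN3. Its member ABCB1 shifted by 42.7 points and was listed at 0 in JJN3, but its mean rlog in INA6 was 4.89, below the minimum level. KDM5B, a histone H3K4 demethylase, stood at 41.3 and 85.8. None of the 9 NSL complex genes was called, and KANSL3 had the widest shift of them, 8.11 points.

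Housekeeping lists gave no large shift, though single members moved. Among 33 endoplasmic reticulum chaperone and secretion genes, 31 proteasome subunits, 50 cytosolic ribosomal proteins and 35 nuclear oxidative phosphorylation genes, the number called was 0 in each direction, and the median shifts lay between −0.596 and 0.726 points. At the shares over protein-coding symbols, lists of this size would hold few calls. DNAJB9, a chaperone of the stress response, shifted by 22.8 points and PDIA3, a disulfide isomerase, by −11.6. Of the ribosomal proteins RPS18 shifted by 14.5 points and RPS20 by −13.0. RPS18 lies in the sparse MHC stretch of chromosome 6 and was below the minimum level in both lines, so its shift is uncertain. Of 30 glycolysis and hypoxia genes 2 were called in each direction. SLC2A3, a glucose transporter, and BNIP3 stood at 86.9 and 77.8 in INA6 and at 50.1 and 43.7 in JJN3. ENO2 and PFKFB4 stood at 49.7 and 62.9 in INA6 and at 81.6 and 93.5 in JJN3.

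Mitotic and sterol genes were displaced by small amounts in 1 direction, with no large shift. In 29 of 30 G2/M and mitosis genes (96.7%, beside 52.7% of protein-coding symbols) all INA6 libraries ranked above all JJN3 libraries, and the median shift was 9.15 points. NUF2, a kinetochore protein, had 9.01, 8.96 and 8.99 against 6.90, 6.79 and 6.89, and AURKB, a mitotic kinase, had 9.82, 9.85 and 9.83 against 8.21, 8.34 and 8.38. In 22 of 25 cholesterol and fatty acid synthesis genes (88.0%, beside 41.1%) the JJN3 libraries were all above, with a median shift of −4.65 points. SQLE, squalene epoxidase, had 9.60, 9.67 and 9.62 against 12.27, 12.30 and 12.29.

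Outside the lists, the widest separations among genes other than 0 in both tables were as follows in INA6. MYADM, a myeloid-associated membrane protein, had 11.24, 11.25 and 11.22 in INA6 and −1.97 in each JJN3 library. CD180, a Toll-like receptor relative of B cells, had 12.55, 12.60 and 12.66 against −0.99, −0.97 and −0.98, and SLC2A5, the fructose transporter, had 12.49, 12.29 and 12.48 against −0.67, −0.66 and −0.67. Next came NES, an intermediate filament protein of neural progenitors, DCLK1, a microtubule-associated kinase, MARCKS, an actin-binding substrate of protein kinase C, APBB1IP, an adaptor of integrin activation, DOCK8, a guanine nucleotide exchange factor of lymphocytes, ACTL8 and SASH3, an adaptor of lymphocytes. Their gaps between the nearest libraries ran from 69.9 to 72.7 points.

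Among genes listed at 0 in JJN3, PNMA5 was the highest in INA6 (12.73, 12.76 and 12.61). Beside MAGEA4, MAGEA1, SYK, PDGFRA and MYEOV, this group held LIN28B, an RNA-binding repressor of let-7, with 9.89, 9.96 and 9.94, and HMX3, a homeobox gene, with 9.80, 9.67 and 9.85. CHST2, a sulfotransferase, was among the 200 highest protein-coding genes of INA6 and had 5.73, 5.66 and 5.84 in JJN3, at percentile 52.6.

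On the JJN3 side the gaps were wider, and the lowest negative values also sat lower in the INA6 order than in that of JJN3, which adds to a gap in this direction. A deposited −1.97 was at percentile 7.94 for CDC42BPA and 11.2 for ZNF607 in INA6, and at 12.7 for ABCF1 and 16.4 for MYADM in JJN3. CDC42BPA, a kinase of the cytoskeleton, had −1.97 in each INA6 library and 10.62, 10.62 and 10.65 in JJN3, a gap of 86.3 points. PAG1, an adaptor that holds SRC kinases in check, had −1.96, −1.97 and −1.97 against 11.42, 11.33 and 11.29, and BMP7, a bone morphogenetic protein, had −1.97, −1.96 and −1.97 against 10.95, 11.10 and 11.12. They were followed by FAT1, an atypical cadherin, SDC2, a syndecan, PCSK1N, an inhibitor of a prohormone convertase, PERP, a desmosomal protein, UBE2QL1, KSR1, a scaffold of the RAF and MEK kinases, CLEC7A, the beta-glucan receptor of myeloid cells, PGAP4 and CECR2, with gaps down to 76.1 points.

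BHLHE22, a transcription factor of neurons, was listed at 0 in INA6 and had 11.67, 11.46 and 11.50 in JJN3. COL6A1, a collagen chain, and COTL1, an actin-binding protein, were among the 200 highest protein-coding genes of JJN3 (13.31, 13.33 and 13.43, and 13.49, 13.63 and 13.63) and stood at percentiles 23.7 and 24.3 in INA6. Of the 200 highest protein-coding genes of each line, 111 (55.5%) were the same. Of the INA6 set 10 fell below percentile 90 in JJN3, and of the JJN3 set 22 did in INA6.

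The called genes were spread unevenly over the genome. Over the 11498 genes with a position and an rlog of at least 5 in a line, 3.69% were called higher in INA6 and 6.19% in JJN3. On chromosome 18 the shares were 1.25% and 14.4% of 160 genes. With no minimum level, the median shift of the 290 ranked symbols of chromosome 18 was −6.63 points, beside 1.07 over all chromosomes. Chromosomes 21 and 4 followed in the JJN3 direction, with 12.8% of 109 and 12.2% of 427 genes, and chromosome 8 had 9.85% of 406. Chromosomes 21 and 4 also had 7.34% and 3.98% called higher in INA6. With no minimum level their median shifts were −0.614 and 1.01 points, so they were not displaced as a whole like chromosome 18. The X chromosome had the highest share called higher in INA6, 7.75% of 387 genes, cancer testis antigens among them.

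**Figure D5:**
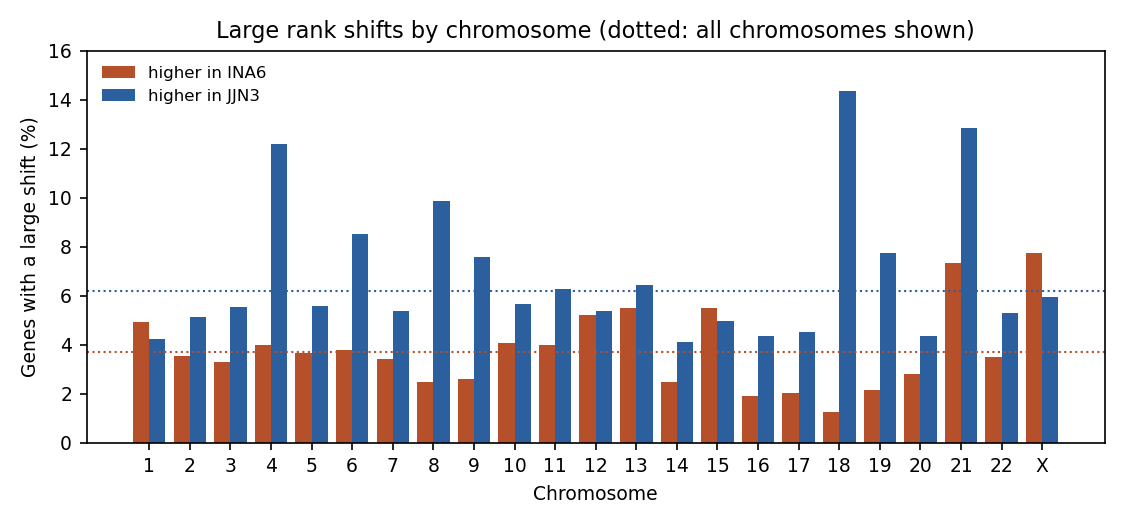
Share of genes with a large shift (y axis, percent) on each chromosome (x axis) for genes higher in INA6 (red) and in JJN3 (blue), with dotted lines at the shares over all chromosomes shown, 3.69% and 6.19%. The bars of chromosome 18 stand at 1.25% and 14.4%, the widest difference of the chromosomes shown.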

How the data were processed

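RNA of 12 libraries in 4 groups of 3 was measured, and each sample took its group from its title. The labels' protocols describe capture of poly(A) RNA on beads and copying with random primers. The tools named in the submitters' processing notes are DESeq2, HTSeq, Bowtie2 and Trim Galore, with build hg38; versions, settings and strand handling are not given in the sources used here. The authors deposited 1 table per line of rlog values, on a log2 scale, for 28277 symbols. The rlog transformation shrinks genes with few reads towards their mean. No counts were used, so depth per library is unknown and limits the precision of low values.

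Symbols at 0 in all 6 libraries numbered 8911 in INA6 and 10073 in JJN3, and the 7531 at 0 in both tables were left out. In the remaining 20746, symbols at 0 were ranked tied at the bottom, below negative values. Percentiles, shifts and calls were computed with Python 3.11.15, pandas 2.3.3 and numpy 2.4.6 and tested on simulated data. Names, positions and promoters come from the RefSeq tables of GRCh38.p14, the build of hg38; 20298 ranked symbols matched. Near-identical copies, and overlapping genes on both strands, are uncertain.

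Members of 36 gene lists, the limits and the rule for named genes were chosen with earlier results of these data known. Named were the 12 widest gaps per direction, the 8 highest genes listed at 0 in the other table, the 5 largest drops among the 200 highest genes of a line, up to 6 called members per list and direction, and all members of the driver, interleukin 6, surface, fate regulator, immunoglobulin and NSL lists. NOTCH2, HHEX, WNT5A, EPHA2 and CTAG2, the neighbours of the drivers, genes of the MHC, and uncalled members given for comparison lie outside this rule and were chosen after their values were seen. Alternatives were other limits, other handling of 0, quantile matching, leaving out each library, and the KANSL2 guide libraries. Y-linked genes were not named. Some members of the gene lists are counted but not reported here by name.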

Additional observations from a re-analysis of the deposited data

How the results depend on the processing

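The numbers of large shifts depend on the limits chosen. With 15 percentile points in place of 25 they became 821 higher in INA6 and 1124 higher in JJN3, and with 40 points 232 and 419, against 439 and 720. Without a minimum rlog they were 842 and 1159, and quantile matching of the 6 libraries with a difference of 2 log2 units gave 925 and 1160, which included all 439 and all 720. At 15 points 735 and 1069 were shared with the KANSL2 guide libraries, against 399 and 688. Leaving out 1 library gave 439 to 444 in INA6 and 721 to 728 in JJN3. Ranking a 0 as deposited gave 443 and 720, and a minimum rlog of 7 gave 301 and 558. Ranking only symbols other than 0 in both tables gave 422 and 729. These held 312 of the 439 and 598 of the 720, as the 127 and 122 listed at 0 in the other line were not ranked. The rest of the 422 and 729 were new calls. Ranking only protein-coding symbols gave 425 and 715, which held 366 of the 379 and 641 of the 663 protein-coding calls. All these counts were within 1.5 times of the main counts, but their members partly differed. Of 2225 recomputed shifts of named genes, 630 moved by more than 1 SD between replicates and 1595 did not, and the number of called genes that changed direction was 0. Of 142 named genes with a large shift, 136 were called again in the guide libraries; SLAMF7, ZBTB32, FN1, ACKR3, HES7 and LUZP4 were not. Ranks compress the top of the order, so a change among the highest genes cannot give a large shift, and low rlog values are tied, so low positions are coarse. No paired analysis was possible because the result comes from no test and the replicate numbers do not pair libraries of different lines.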

Other observations

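A run of zinc finger genes on chromosome 19 ranked lower in INA6 together. From ZNF529 to ZNF607 (chr19:36543613-37719761) 29 ranked symbols have a position. With no minimum level, 28 of their shifts were negative and 1 was positive, the median was −30.6 points, and 12 were called higher in JJN3 and 0 in INA6. The span was chosen as the lowest median over runs of 20 consecutive genes with an rlog of at least 5 in a line. Of its 20 such genes 17 reached that level in JJN3 alone, which fixes their direction, and 3 (ZNF529, ZNF567 and ZNF383) in both lines. Such KRAB zinc finger genes encode repressors, many of them of transposable elements. ZNF875 had rlog values of 0.91, 0.86 and 0.92 in INA6 and 8.96, 8.92 and 8.91 in JJN3, ZNF607 had −1.97 in each INA6 library and 7.69, 7.56 and 7.75 in JJN3, and ZNF529 had 5.68, 5.66 and 5.63 against 9.27, 9.30 and 9.28. Of all 257 ranked ZNF symbols on chromosome 19, 30 (11.7%) were called higher in JJN3 and 2 in INA6, with a median shift of −8.22 points. Of 281 ZNF symbols elsewhere 6 (2.14%) and 5 were called, and the median shift was −0.831 points. Of the other protein-coding symbols on chromosome 19, 3.39% were called higher in JJN3. In the KANSL2 guide libraries 29 ZNF symbols on chromosome 19 were called higher in JJN3. These genes are similar in sequence, so reads can be split between them, and they were singled out after their values were seen.

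Spans chosen in the same way on other chromosomes are given over all their ranked symbols. From RBBP8 to ASXL3 on chromosome 18 32 of 37 shifts were negative, with 7 genes called higher in JJN3, N-cadherin CDH2 among them. From KHDRBS3 to NRBP2 on chromosome 8, a span that holds MAFA, the median was −12.3 points over 48 symbols with 6 called. From TSC22D3 to IL13RA1 on the X chromosome it was 13.7 points over 42 symbols, with 7 called higher in INA6 and 1 in JJN3. These spans were picked as extremes, so their medians are a description.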
